A study of Mus musculus with 55 samples.

Results

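The genes described here are those whose pre-mRNA was higher with the auxin IAA than without it at 5 stages: in asynchronous cells and at 50, 60, 90 and 120 min after release from mitosis. They were chosen on the difference +IAA minus -IAA of log2(TPM + 1) between libraries of the same stage and replicate, which had to be above 0 in all 11 such pairs with a mean of at least 0.2. This gave 68 of the 10237 genes listed for CTCF-AID cells, and 62 of the 68 were also listed among the 9911 genes of a second line, CCNA-GFP.

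CTCF is a zinc finger protein that binds DNA at many sites in the mouse genome, halts loop extrusion by cohesin there, and can also act at the promoters it occupies. Auxin-induced degradation removes a protein that carries a degron tag within hours, so that early transcriptional responses can be followed. Because introns are removed within a short time, the level of unspliced pre-mRNA follows ongoing transcription more closely than the level of mature mRNA does.

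CTCF-AID cells are mouse embryonic stem (ES) cells of the line E14Tg2a, strain 129/Ola, in which CTCF carries an auxin-inducible degron, and gave 36 libraries. CCNA-GFP cells are E14Tg2a cells with a cyclin A-GFP reporter of the cell cycle, were given no IAA, and contributed 19 libraries. Both lines grew in serum with LIF. Mitotic cells were collected by shake-off after 4 h in 10 µM RO-3306, an inhibitor of CDK1, and 4 h in 50 ng/ml nocodazole, which blocks the spindle, and were then released; the asynchronous cells were not synchronised. In the +IAA arm 0.5 mM IAA was added for the last 2 h of nocodazole and kept during the release, and asynchronous cells received IAA for 4 h alongside. Each CTCF-AID arm held 3 asynchronous libraries, 3 mitotic ones and 2 at each of 20, 40, 50, 60, 90 and 120 min. No cells without the degron were given IAA, so an effect of loss of CTCF and one of IAA itself cannot be told apart. The study describes its replicates as independent and biological, and p-values measure the spread between these 2 or 3 libraries a group.

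The values that chose the members (22 libraries at 5 stages) are described below without a test. The 14 libraries of mitotic cells and of 20 and 40 min took no part in the choice and were tested, as were the CCNA-GFP libraries. The listed genes of a CTCF-AID library sum to 17702 to 43370 TPM; the files hold no counts, so depth is unknown. The libraries at 20 and 40 min carry the same replicate numbers as those of the other stages. The Ctcf pre-mRNA does not show the depletion, which acts on the protein: it was 6.54, 6.10 and 9.13 TPM in asynchronous cells without IAA and 7.52, 7.77 and 10.9 TPM with it. Ctcf was higher with IAA in all 11 pairs with a mean of 0.17, under the threshold. Of the 12 ES cell markers 10 were listed. Their summed level was 46.4 to 161 TPM per library without IAA and 45.3 to 144 TPM with it. Over the 11 pairs Klf4 was higher in all with IAA (2.04% of all genes were) and Esrrb and Zfp42 lower in all (3.23%). Markers of feeder fibroblasts (4 of 10 listed) summed to at most 19.4 TPM in a library, in either arm.

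Some members hold, close to their start site, letters that CTCF is known to recognise. RefSeq promoters (assembly GRCm38.p6, 250 bases before to 50 after each start) were found for 54 of the 68 members and searched on both strands for 2 runs of letters from the CTCF motif, one of 12 letters (CCA, any 2 bases, AG, any 2 bases, GGC) and one of 9 (AGGGGGCGC), which can overlap. The first stood at 6 of the 54 genes (11.1%) against 3.26% of the 8199 listed genes with a promoter, and the second at 10 (18.5%) against 3.01%. At 3 of those 6 genes (Eef2kmt, Slx1b and Echdc1) the match of 12 letters lies after the start. At least 1 of them stood at 13 members (24.1%) against 5.98%. The matches of 8 members are shown to let the letters be seen in place, Lsm11 and 4933412E12Rik first, since their differences were among the largest; 3 of the 12 leading members (Dtwd2, Vgf and Mmgt2) were not searched. Positions are on GRCm38, each stretch is read 5′ to 3′ on the strand of the gene with up to 30 bases on either side and none past the start, and the capitals mark the match, on either strand.
Lsm11, chr11:45944997-45945068, minus strand: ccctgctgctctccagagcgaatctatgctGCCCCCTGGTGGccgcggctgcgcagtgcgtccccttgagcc
4933412E12Rik, chr10:116950522-116950561, plus strand: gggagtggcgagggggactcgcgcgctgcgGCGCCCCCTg
Nabp2, chr10:128409992-128410063, minus strand: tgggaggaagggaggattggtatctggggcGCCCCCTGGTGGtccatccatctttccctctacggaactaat
Mmaa, chr8:79294791-79294859, minus strand: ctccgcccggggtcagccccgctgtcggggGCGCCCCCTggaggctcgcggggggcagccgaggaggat
Tprkb, chr6:85915913-85915970, plus strand: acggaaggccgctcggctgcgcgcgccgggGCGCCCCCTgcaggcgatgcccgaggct
Gclm, chr3:122245452-122245520, plus strand: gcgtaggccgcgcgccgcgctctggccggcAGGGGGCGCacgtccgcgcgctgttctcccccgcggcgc
Radil, chr5:142551238-142551309, minus strand: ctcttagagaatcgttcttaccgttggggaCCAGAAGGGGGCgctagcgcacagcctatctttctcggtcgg
Snx11, chr11:96777679-96777747, minus strand: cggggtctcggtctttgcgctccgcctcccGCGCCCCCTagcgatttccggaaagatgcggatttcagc
The matches of Lsm11 and 4933412E12Rik began at positions -103 and -10 from the start, and those of Nabp2 and Radil at -183 and -181. In Nabp2 and Radil the 2 motifs overlapped. The other 5 members with a match were Eef2kmt, Slx1b, Echdc1, Scaf11 and Rnf216, and 41 of the 54 had none of these letters in the window. The base composition of the members' promoters differed little from that of all listed genes, with a median GC content of 61.8% against 61.3% and a median of 21.5 against 21.0 CpG.

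The 68 members had mean differences from 0.20 to 0.90 with a median of 0.32. Their mean pre-mRNA levels over the 36 libraries were 0.392 to 5.23 TPM. The median of these levels was 1.77 TPM, against 1.89 TPM for all listed genes. The difference was 0.5 or more in 15 members and under 0.3 in 31. Being higher in all 11 pairs was met by 2.04% of all genes (209) whatever the size of the mean, and 198 genes met the mirror rule of being lower in all 11 with a mean of -0.2 or less. The members nearest above the threshold were Azi2, Tcam1 and Cnnm4 (0.2045, 0.2031 and 0.2008), and the genes nearest below it were Cdc42ep2, AW554918 and Chp1 (0.1996, 0.1979 and 0.1968). In 12 members the smallest pair was under 0.05, and in 22 it was 0.2 or more.

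**Figure D1:**
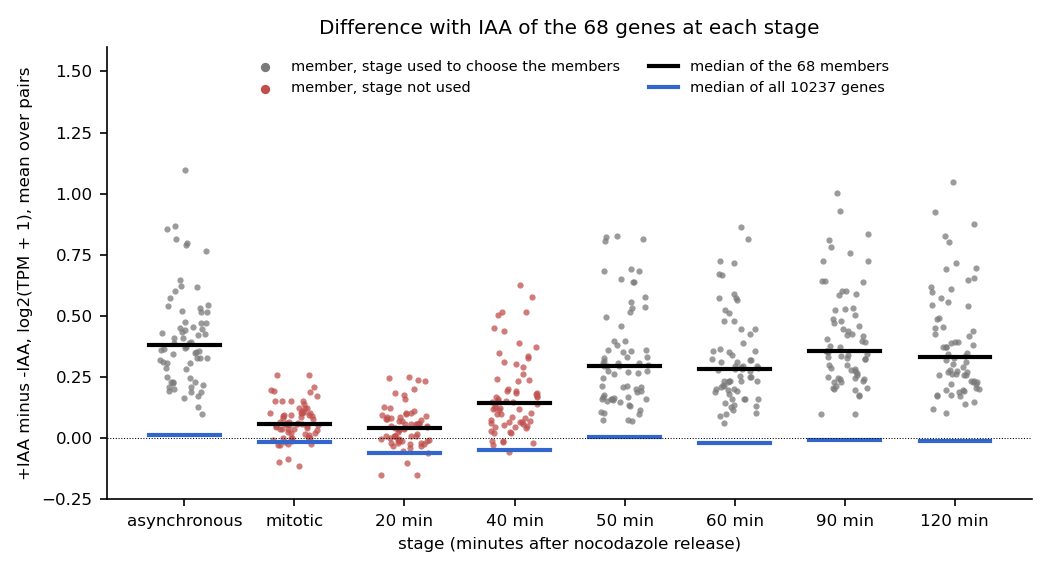
Each point is 1 of the 68 members, placed by its mean difference +IAA minus -IAA in log2(TPM + 1) at each stage; grey stages chose the members and red stages did not, and lines give the medians of the members (black) and of all 10237 genes (blue). The members' median was 0.38 in asynchronous cells, 0.06 in mitosis, 0.04 at 20 min, 0.14 at 40 min and 0.28 to 0.36 from 50 to 120 min, while that of all genes lay between -0.06 and 0.01.

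A pair of leading members act in energy metabolism. Gys1, the glycogen synthase of muscle and most other tissues, lies on chromosome 7 (45434844 to 45456619, plus strand) and had the largest difference of the 68 (mean 0.90). Its pre-mRNA stood at 0.911, 0.760 and 1.21 TPM in asynchronous cells without IAA and at 3.29, 2.12 and 4.44 TPM with it, a 3.42-fold ratio of the means. At 60 min it was 1.53 and 1.34 TPM without IAA and 3.06 and 2.68 TPM with it. The arms did not overlap at either stage. Gys1 overlaps Ruvbl2 on the opposite strand, and whether the counting used strand is not given. Prkag1, the gamma 1 subunit of the energy sensor AMPK, had a mean difference of 0.71. In asynchronous cells Prkag1 stood at 1.28, 1.02 and 1.72 TPM without IAA and at 3.05, 2.68 and 4.13 TPM with it.

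Several leading members act on RNA or in translation. Lsm11 encodes a protein of the U7 snRNP, which trims the ends of histone mRNAs, and had a mean difference of 0.86. In asynchronous cells it stood at 1.65, 1.98 and 1.98 TPM without IAA and at 3.46, 3.51 and 4.76 TPM with it, and at 50 min at 3.39 and 3.35 TPM against 6.31 and 7.08 TPM. Every library with IAA was above every one without it at these stages. Dtwd2, whose product modifies tRNAs, had a mean of 0.78 and was nearly flat over the cycle without IAA, at 1.35 to 2.15 TPM in all 18 libraries. With IAA it was 3.66, 3.74 and 4.61 TPM in asynchronous cells and 3.68 and 3.35 TPM at 60 min. Mrps16, a protein of the small subunit of the mitochondrial ribosome, differed less in asynchronous cells (1.34, 0.891 and 1.09 TPM without IAA, 1.93, 1.50 and 1.68 TPM with it) than at 50 min (3.11 and 3.25 TPM without, 6.01 and 6.61 TPM with). Eef2kmt, the methyltransferase of elongation factor eEF2, had a mean of 0.57 and Fdxacb1, which has a ferredoxin-fold anticodon-binding domain, one of 0.63.

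Vgf, which encodes a secreted neuropeptide precursor, is listed at 0.353, 0.500 and 0.264 TPM in asynchronous cells without IAA and at 0.807, 1.18 and 0.738 TPM with it. It was higher after release, at 2.19 and 3.61 TPM at 120 min without IAA and at 5.01 and 9.44 TPM with it. On log2(TPM + 1) its mean difference was widest there, at 1.05 against 0.47 in asynchronous cells. That scale understates the change at the lower asynchronous level, so these differences do not compare the fold changes. Replicates 1 and 2 differed at 120 min in both arms. Mmgt2, a magnesium transporter of the Golgi and endosomes, had a mean of 0.62. It stood at 1.45, 0.956 and 1.62 TPM in asynchronous cells without IAA and at 2.68, 2.18 and 3.12 TPM with it.

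For the others of the 12 leading members less is known. 4933412E12Rik is annotated as a non-coding RNA from a bidirectional promoter on chromosome 10, overlaps Rab3ip on the opposite strand, and was 0.991 and 1.07 TPM at 50 min without IAA against 2.20 and 3.01 TPM with it. Ccdc136 encodes a coiled-coil protein and was 1.92, 1.61 and 1.55 TPM in asynchronous cells without IAA against 4.31, 3.06 and 3.71 TPM with it. Dbil5, a short gene related to the acyl-CoA binding protein, was almost unmeasured in asynchronous cells without IAA, at 0.0744, 0.0652 and 0.00 TPM, and stood at 0.689, 0.424 and 1.46 TPM with it. Its smallest pair was 0.03, and it overlaps Gemin4 and Glod4 on the opposite strand, so reads of these neighbours may be counted in it.

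**Figure D2:**
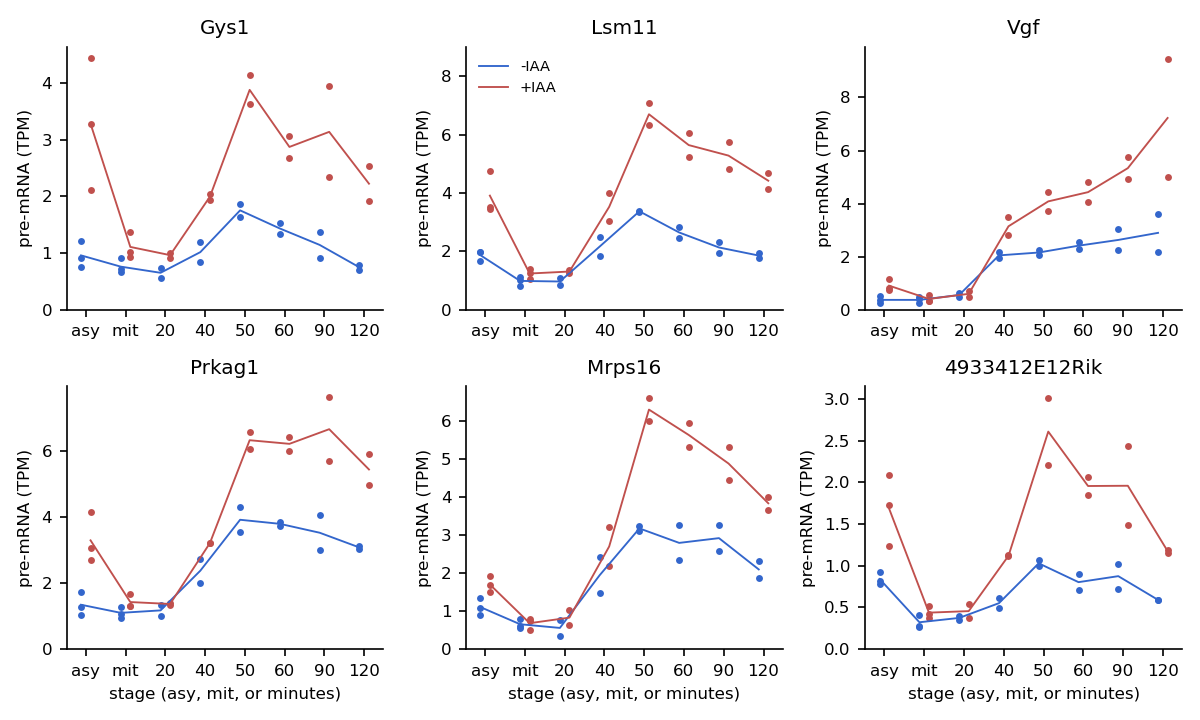
Pre-mRNA levels (TPM) of 6 members in each CTCF-AID library, without IAA (blue) and with IAA (red), over asynchronous (asy) and mitotic (mit) cells and minutes after release; lines join the means. The arms lie closer in mitosis and at 20 min than in asynchronous cells and from 50 min on. Gys1 at 50 min was 1.64 and 1.87 TPM against 3.63 and 4.14 TPM. Its arms did not overlap in mitosis or at 20 min either.

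Members differed in when the gap was widest on log2(TPM + 1), a scale that understates it at stages where a gene is low. It was larger in asynchronous cells than in the mean of 50 to 120 min for 39 of the 68, with medians of 0.38 and 0.30. Dennd5b, a regulator of Rab GTPases, had 0.52 in asynchronous cells and 0.07 at 50 min. The reverse held for Tfap2c, a transcription factor of the AP-2 family used in trophoblast and germ cells, with 0.17 and 0.68. Tfap2c stood at 1.97, 2.00 and 2.13 TPM in asynchronous cells without IAA and 2.01, 2.95 and 2.36 TPM with it, and at 50 min at 6.62 and 7.46 TPM against 11.98 and 11.78 TPM. Both were picked after their values were seen. The arms did not overlap in asynchronous cells for 50 of the 68 members (2.51% of all genes had every library with IAA above every one without) and at 60 min for 55 (7.56%), and both counts follow from the choice of the members.

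Sorted by what the proteins do, the members spread over 8 groups, whose medians ran from 0.26 to 0.38. The last of these groups holds the 8 members with other or unassigned roles. The 12 members in RNA processing and translation had a median of the mean differences of 0.36 and the 13 in metabolism and mitochondria 0.36. Besides the leading genes, the first group holds Carm1, the arginine methyltransferase that acts as a coactivator, Secisbp2, needed to read UGA as selenocysteine, and Rps24, a ribosomal protein. The second holds Gclm, the modifier subunit of the enzyme that makes glutathione's precursor, Rpia of the pentose phosphate pathway, and Pink1, a kinase of mitochondrial quality control. Transcription factors and zinc finger proteins (6, among them Tfap2c, Tfap4 and Tfeb) had a median of 0.34. Genes of DNA repair, meiosis and chromatin (6, among them the nuclease subunit Slx1b, the single-strand binding protein Nabp2 and the meiotic Mnd1) had one of 0.38. Secreted, surface and signalling proteins (12, among them Vgf, the Wnt antagonist Sfrp2, Sema7a and the receptor kinase Ephb3) had the lowest median, 0.26. The roles were assigned with the members known.

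Carm1 and Ephb3 were the only members in the 8 gene lists examined. Carm1 was 3.07, 3.24 and 4.42 TPM in asynchronous cells without IAA and 3.97, 4.03 and 5.77 TPM with it, with overlapping arms and a mean difference of 0.35. Of the 13 nuclear receptor coactivators and corepressors 11 were listed, and Carm1 alone was higher in all 11 pairs (median of the list -0.03). Ephb3 was 1.69, 1.26 and 1.26 TPM against 2.79, 1.83 and 2.25 TPM, again in asynchronous cells, and it alone of 33 listed receptor kinases and phosphatases was higher in all 11 pairs, while 2 were lower. Of 20 genes of CTCF and cohesin, Ctcf and Patz1 were higher in all 11 pairs and none was lower. Of the 14 genes of the AHR list (the receptor that binds indoles), 6 were listed, with a median of 0.01 and none higher in all 11 pairs. Their means ran from -0.08 (Ahr) to 0.21 (Tiparp, higher in 9 of 11 pairs). The targets Ahrr, Cyp1a1 and Cyp1b1 were not listed, and whether AHR targets respond was not tested. None of the 16 listed immediate early genes or of the 13 listed p53 targets was higher in all 11 pairs. Nor was any of the 44 listed genes of FGF, Wnt, TGF-beta and Notch signalling, and of 4 protocadherins Pcdh1 was. Of all genes 2.04% were higher in all 11 pairs and 3.23% lower in all. At these shares lists this short hold few such genes or none, and no list was tested against them. At 20 and 40 min no gene of any of the 8 lists was called in limma, with or without the block.

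The stages that took no part in the choice ask whether the members already differed in mitosis and in the first minutes of release. At 40 min 54 of the 68 members were higher with IAA in both pairs, which was so for 10.2% of all genes. At 20 min 28 were higher in both pairs (5.71% of all genes) and 5 were lower in both (57.6%). All 4 pairs of 20 and 40 min were higher for 25 members (1.54%), and all 3 mitotic pairs for 35 (4.61%). Lower in all pairs were 1 member in mitosis (19.9% of all genes) and 2 at 40 min (53.2%). The median difference of the members was 0.06 in mitosis, 0.04 at 20 min and 0.14 at 40 min, when that of all genes was -0.01, -0.06 and -0.05.

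The libraries differ in total at these stages. At 20 min the listed genes of replicate 1 sum to 21081 TPM with IAA and to 23827 TPM without it, and the median of all genes in that pair was -0.10. There 30 of the 68 members were higher, and 61 in replicate 2. With each library scaled to the same total, 50 members were higher in all 4 pairs of 20 and 40 min (7.81% of all genes), 38 in all 3 mitotic pairs (10.3%) and 51 in both pairs of 20 min (21.6%). Without replicate 2, which leaves a single pair at 20 min, the members' median there turned to -0.02 while that of all genes was -0.10.

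In the limma fit of the 14 libraries, no member and no other gene was called in any of these comparisons (adjusted p under 0.1 and a log2 fold change over 0.2). The percent of all genes called higher was 0.0 for 20 and 40 min together, for each alone and for mitosis, and at an unadjusted p under 0.05 there were 145 genes in either direction for 20 and 40 min (13 of them members that were higher), 118 for 40 min (14), 44 for 20 min (1) and 39 for mitosis (3). With the replicate as a block these were 1718 genes (32 members), 744 (29), 754 (6) and 342 (11). Libraries of the same replicate number deviated together. The fit without the block leaves this pairing out, so its lack of calls does not show that the arms were alike. With the block 3 members were called at 20 and 40 min, when 0.0684% of all genes (7) were called higher. At 40 min alone 5 members were among the 8 genes called higher (0.0781%). No member was called lower in either, when 0.401% and 0.43% of all genes were. With libraries also scaled to the same total, 6 members were called at 20 and 40 min (0.0781%) and 3 at 40 min (0.0488%), and with scaling but no block Gys1 alone at 20 and 40 min (0.00977%). No gene was called at 20 min or in mitosis with the block, and the difference between the effect at 20 and 40 min and that in mitosis was called for none in limma with or without it (290 genes and 7 members that were higher at an unadjusted p under 0.05 with it, 30 and 0 without).

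Gys1 was the clearest of them. It stood at 0.742 and 0.562 TPM at 20 min without IAA and at 1.01 and 0.920 TPM with it, and at 40 min at 1.20 and 0.834 TPM against 2.05 and 1.94 TPM, so that the arms did not overlap at either time. Its log2 fold change over both times was 0.41, higher in 4 of 4 pairs, with an adjusted p of 0.999685 in limma without the block (SE 0.087) and of 0.0172 with it (SE 0.043). 4933412E12Rik was 0.611 and 0.491 TPM at 40 min without IAA and 1.11 and 1.13 TPM with it. Its log2 fold change over 20 and 40 min was 0.27, with an adjusted p of 0.0328 in limma with the block. Mrps16 was 0.764 and 0.351 TPM at 20 min against 1.03 and 0.628 TPM, and 2.42 and 1.47 TPM at 40 min against 3.22 and 2.19 TPM. Replicate 2 was the lower one in both arms and the arms overlapped. Its log2 fold change was 0.29 and its adjusted p 0.0776 in limma with the block.

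Dbil5, Vgf and Ocel1 were called at 40 min alone, in limma with the block. Vgf stood at 2.16 and 1.94 TPM without IAA and at 2.80 and 3.49 TPM with it, a log2 fold change of 0.44 (SE 0.079, adjusted p = 0.0636). At 20 min it was 0.480 and 0.633 TPM without IAA and 0.482 and 0.718 TPM with it. Dbil5 had 0.63 (SE 0.107, adjusted p = 0.0512) from 0.982 and 0.589 TPM against 2.36 and 1.24 TPM. Ocel1, which encodes an occludin-like domain protein and falls outside the rule for named genes, had 0.50 (SE 0.0993, adjusted p = 0.0979) from 1.66 and 0.982 TPM against 2.73 and 1.83 TPM. Lsm11 had 0.37 over 20 and 40 min, higher in 4 of 4 pairs, and was not called with the block (adjusted p = 0.152 in limma).

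**Figure D3:**
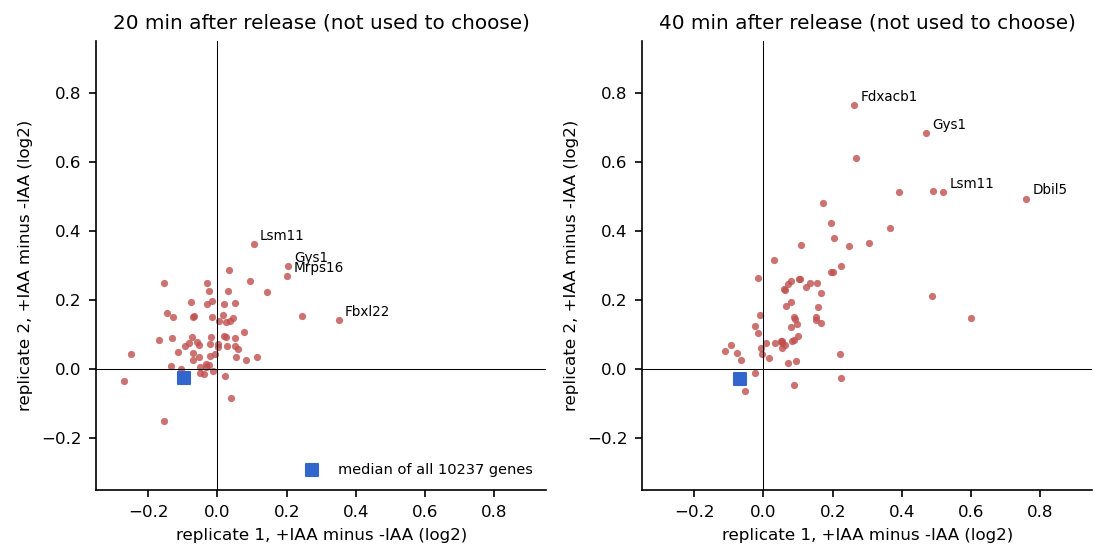
The difference +IAA minus -IAA of each of the 68 members in replicate 1 (horizontal) and replicate 2 (vertical), in log2(TPM + 1), at 20 min (left) and 40 min (right) after release; the square is the median of all 10237 genes. At 40 min 54 members lie in the upper right, and at 20 min 28 do.

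Among the members, larger differences in the stages of the choice went with larger ones at 20 and 40 min. Of the 15 members with a mean difference of 0.5 or more, all were higher in both pairs at 40 min and 10 in all 4 pairs of 20 and 40 min, and their median over those pairs was 0.24. Of the 53 smaller members 39 and 15 were, with a median of 0.07. Among all genes 10.2% were higher in both pairs at 40 min and 1.54% in all 4 pairs. These shares of all genes were not split by size, so they give no background for the link. The scale understates the change of low genes at every stage, and whether the level of a gene accounts for the link was not tested. In 17 members all 7 pairs outside the choice were higher (0.42% of all genes), among them Gys1, Lsm11, Prkag1, 4933412E12Rik, Mmgt2, Ccdc136 and Eef2kmt.

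Mitotic values were small. The 3 members with the largest mitotic differences were Gys1, Dtwd2 and Prkag1, at 0.26, 0.26 and 0.21, and none was called in limma with or without the block. Gys1 was 0.718, 0.659 and 0.906 TPM in mitosis without IAA and 1.02, 0.931 and 1.37 TPM with it, so that its arms did not overlap. Dtwd2 was 1.35, 1.51 and 1.86 TPM against 2.07, 2.03 and 2.09 TPM, also without overlap. Prkag1 was 1.07, 0.952 and 1.27 TPM against 1.30, 1.30 and 1.67 TPM, again without overlap. These 3 were picked for their mitotic differences, and the share of all genes without overlap in mitosis is not given here. IAA had by then been present for 2 h, and pre-mRNA left from before mitosis and pre-mRNA made in mitosis cannot be told apart here.

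The members were on 20 chromosomes, with 7 each on chromosomes 9 and 11. The next listed gene on either side of a member was itself a member only once, for Sfrp2 and Mnd1 on chromosome 3, whose starts lie 389465 bp apart. Both were low, at 0.539, 0.630 and 0.472 TPM against 0.905, 0.925 and 0.959 TPM for Sfrp2 and 0.874, 0.739 and 1.02 TPM against 1.73, 1.25 and 1.86 TPM for Mnd1, in asynchronous cells without and with IAA. Of the 133 neighbours that are no members, 1 was higher in all 11 pairs (0.752%, against 2.04% of all genes) and 8 were lower in all 11 (6.02% against 3.23%). The mean difference was above 0 in 63 of the 133 (47.4%), against 48.5% of all genes. The 2.04% and the 48.5% both include the members, which are higher in all 11 pairs by their choice, while the 133 neighbours leave them out. Neither share of higher genes therefore compares like with like, and whether neighbours are less often higher was not tested.

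At 12 members a listed gene starts within 1000 bp, in each case on the opposite strand, which was about as frequent as among all listed genes (17.6% against 16.9%). Of these 12 partners 10 had a mean difference below 0 over the 11 pairs (83.3%, against 51.5% of all genes), and 3 were lower in all 11. At 20 and 40 min, outside the choice, 10 of the 12 were below 0 as well (83.3%), but so were 86.0% of all genes, and 4 were lower in all 4 pairs (33.3%), as were 3689 of the 10237 genes. The partner with the lowest value over the 11 pairs was Polr3a, a subunit of RNA polymerase III, which starts 67 bp from Rps24. Polr3a was 2.40, 2.00 and 2.92 TPM in asynchronous cells without IAA and 1.46, 1.31 and 1.99 TPM with it, every library with IAA below every one without. Its mean difference was -0.46 where that of Rps24 was 0.26. At 20 and 40 min Polr3a had a log2 fold change of -0.20, lower in 4 of 4 pairs, and was not called in limma (adjusted p = 0.999685, and 0.0842 with the block, where the change stayed just under the 0.2 required). Lrrc75a beside Mmgt2 and Alkbh4 beside Lrwd1 were the others lower in all 11 pairs, by -0.08 and -0.12. These partners were named after their values were seen, and with starts so close and strand use not given, reads of a pair may not have been assigned to the right gene.

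**Figure D4:**
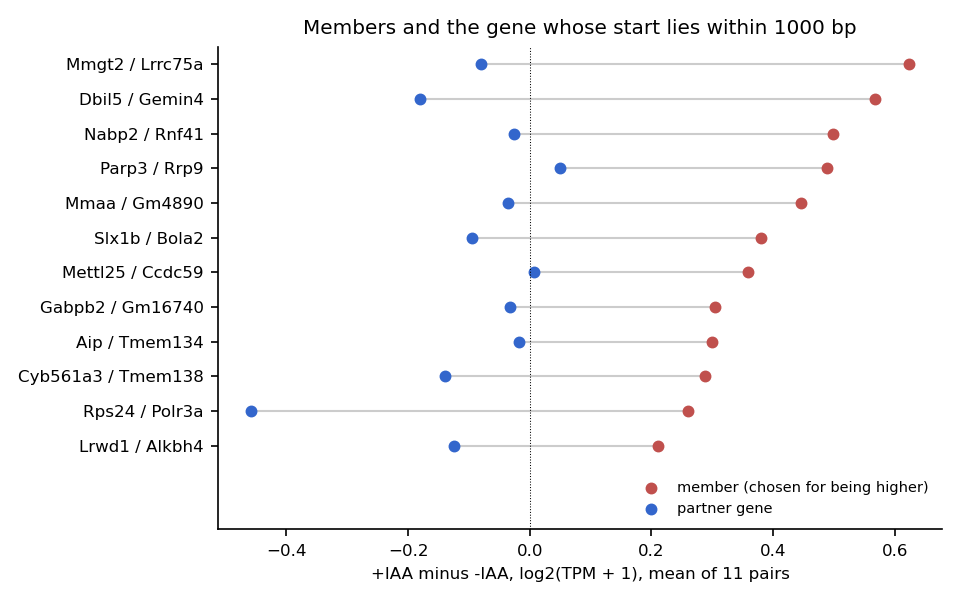
Mean difference +IAA minus -IAA over the 11 pairs, in log2(TPM + 1), of the 12 members with a listed gene starting within 1000 bp (red) and of that gene (blue). The members lie above 0.2 by their choice, and 10 of the 12 partners lie below 0, down to -0.46 for Polr3a; at 20 and 40 min, not plotted, 10 were below 0 as were 86.0% of all genes.

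The median length of the members was 18757.5 bp against 22482 bp for all listed genes, 65 of 68 code for protein, and 23.5% against 24.9% were shorter than 10 kb. A coding gene on the opposite strand overlapped 21 members (30.9%, against 22.2% of listed genes), among them Gys1, Eef2kmt and Dbil5.

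CCNA-GFP cells show how the members behave in the release when CTCF is not depleted. At 60 min 56 of the 62 members listed there rose from the mitotic level in limma with the replicate as a block, when 88.3% of all genes did, with a median log2 fold change of 0.68 against 0.79. At 40 min 30 did (49.3% of all genes) and at 120 min 57 (90.2%). The 30 became 18 without replicate 1 (26.4%) and 17 without the block (23.8%). In asynchronous cells 43 were higher than in mitosis (70.4%). Against 60 min, the asynchronous level was lower for 43 (67.0%) and higher for 7 (8.6%), the latter 3 or 4 with a replicate left out. The 43 became 23 without replicate 1 (44.7%). TPM as deposited rise in total after release: with each library scaled to the same total the median of all genes at 60 min moves from 0.79 to 0.02, and relative to that 22 members were higher (36.4%) and 20 lower (33.3%). Scaled in this way, 15 members were higher than in mitosis at 40 min (23.7%) and 18 lower (31.3%), 14 were higher at 120 min (28.7%) and 15 lower (23.5%), and 17 were higher in asynchronous cells (24.8%) and 10 lower (20.3%). Against 60 min 22 members were then higher in asynchronous cells (35.2%) and 15 lower (35.0%). The shares of all genes moved with the scaling too, from 8.6% higher and 67.0% lower as deposited.

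Slx1b, the catalytic subunit of a structure-specific nuclease, rose most at 60 min. It went from 0.766, 0.830 and 1.04 TPM in mitosis to 4.64 and 3.85 TPM, a log2 fold change of 1.56 (SE 0.119, adjusted p = 4.23e-10 in limma), and stood at 1.80, 2.33 and 3.14 TPM in asynchronous cells. Ephb3 rose from 1.29, 1.30 and 1.35 TPM to 5.94 and 5.02 TPM (1.47) and was back at 1.19, 1.38 and 1.19 TPM in asynchronous cells. Sema7a, a membrane-bound semaphorin, rose from 0.383, 0.299 and 0.478 TPM to 3.08 and 1.77 TPM (1.34). All 3 kept their call with libraries scaled to the same total. No member fell at 60 min in the values as deposited (0.515% of all genes did). Mnd1, which acts in meiotic recombination, had the smallest change, 0.05 (adjusted p = 0.519 in limma; -0.36 and called lower with libraries scaled to the same total), and was higher in asynchronous cells (0.754, 0.691 and 0.959 TPM) than at 60 min (0.419 and 0.354 TPM).

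The members with the highest asynchronous level in CCNA-GFP were Gclm, Snx11, a sorting nexin, and Tfap4, a basic helix-loop-helix transcription factor. Gclm stood at 3.60, 3.96 and 5.84 TPM, Snx11 at 4.26, 3.04 and 4.91 TPM and Tfap4 at 2.73, 2.79 and 3.92 TPM. The median of the 62 members there was 1.24 TPM and that of all genes 1.53 TPM. The leading member, Gys1, was at 0.725, 0.668 and 1.40 TPM, and Lsm11 at 1.10, 1.13 and 1.48 TPM. Levels of the 2 lines were normalised apart and are not compared. The stage of the highest mean was 90 min for 21 of the 62 members (33.9%, against 37.1% of all genes), 50 min for 16 (25.8% against 21.7%), 60 min for 14 (22.6% against 23.0%), asynchronous for 8 (12.9% against 10.4%) and 120 min for 3 (4.84% against 7.31%). The 50 min value is 1 library, of replicate 3, and the other stages rest on different replicates (60 min on 1 and 2, 90 min on 1 and 3) whose totals differ, so the order of these stages was not tested.

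**Figure D5:**
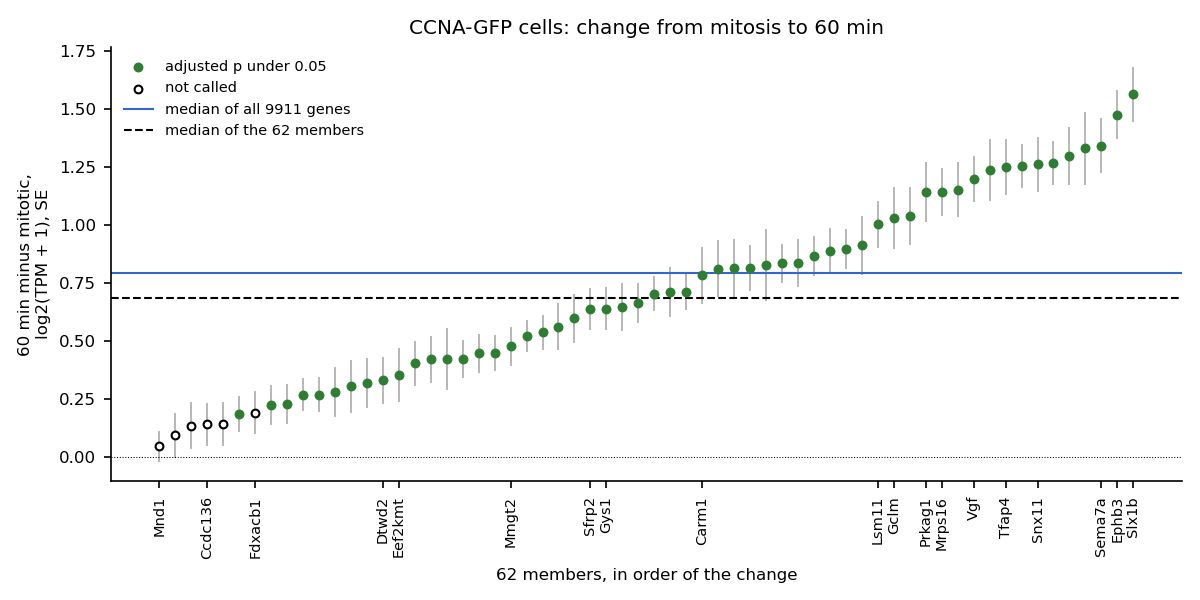
Log2 fold change from mitosis to 60 min in CCNA-GFP cells of the 62 members listed there, with the SE of the limma fit; filled points passed an adjusted p of 0.05, and the genes that the naming rule picked are labelled. The members run from 0.05 (Mnd1) to 1.56 (Slx1b), with a median of 0.68 (dashed) against 0.79 for all 9911 genes (blue).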

How the data were processed

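Ribo-depleted, stranded, paired-end RNA-seq libraries were aligned by the authors to mm10 with STAR and quantified with RSEM on Gencode vM12, with a pre-mRNA isoform added for each gene. The deposited values are TPM of that isoform, kept by the authors for RefSeq curated genes whose mean passes 0.5 TPM either in asynchronous cells or in 2 or more samples after mitosis. The steps between low values differ between libraries by a factor that the sources used here do not name. TPM keep no counts, so depth and counting error are unknown and the spread between replicates is the only error used; the count test of the study was not used. The column names of asynchronous CTCF-AID cells are damaged, and their stage was read as the only one left. The members and lists were chosen with earlier results of these data known.

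Differences were taken on log2(TPM + 1), which understates the change of low genes. Tests used limma 3.58.1 (lmFit, eBayes with trend; R 4.3.3), two-sided, with Benjamini-Hochberg adjustment over all genes of a table. For CTCF-AID the 14 libraries of mitosis, 20 and 40 min were fitted without a block and called at an adjusted p of 0.1 and a log2 fold change of 0.2; all 19 CCNA-GFP libraries were fitted with the replicate as a block and called at 0.05. Equal replicate numbers pair the CTCF-AID libraries: deviations from the group means correlated above 0.1 in all 12 distinct values (r from 0.513 to 0.884), since a stage with 2 replicates gives 1 value. No library copied another (Spearman's rho between replicates from 0.918 to 0.984, at most 0.313% of values identical), and no column was left unused (0). Scripts were tested on simulated data; the remaining steps ran in pandas 2.3.3 and numpy 2.4.6 (Python 3.11.15), with figures from matplotlib 3.10.9.

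Alternatives were the block, a pseudocount of 0.1 or 0.5, a minimum of 1 TPM, libraries scaled to the same total, all 36 CTCF-AID libraries, and each replicate left out. The block together with scaling was chosen after seeing the data. Positions were taken from Gencode vM21 (GRCm38, which is mm10), with 10225 of 10237 symbols matched. Genes were named by a rule: Ctcf; the 12 members with the largest mean difference; the 8 largest called at 20 and 40 min and the 5 largest called in mitosis (the 3 largest where none was called); members called lower at 20 and 40 min; the 3 largest called rises and falls at 60 min and the 3 highest asynchronous levels in CCNA-GFP; the 3 genes on either side of the threshold; members in a gene list; adjacent members. Others, the examples of each role among them, were chosen after their values were seen.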

Additional observations from a re-analysis of the deposited data

Results flagged for a closer look

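8 results stand out because every pair at a stage outside the choice was lower with IAA, against 11 of 11 pairs higher at the stages of the choice. The higher side is fixed by the choice of the members, each of these stages has 2 or 3 pairs, and the difference between the stages was not tested. In mitosis the mean difference of Snx11 was -0.12 (3 pairs), from 3.18, 1.98 and 2.54 TPM without IAA to 2.70, 1.89 and 2.23 TPM with it. At 20 min Dbil5 had -0.15, Rps24 -0.15, Parp3 -0.031, Angel1 -0.026 and Cd55 -0.0089 (2 pairs each). At 40 min Rpia had -0.058 and Malt1 -0.018 (2 pairs each). At 20 min the total of replicate 1 was lower with IAA and 5.71% of all genes were higher in both pairs while 57.6% were lower in both. With each library scaled to the same total, Snx11 (-0.10), Dbil5 (-0.17), Rps24 (-0.091) and Parp3 (-0.015) were still lower in every pair, Rpia (-0.020) and Angel1 (0.014) were lower in 1 of 2, and Cd55 (0.057) and Malt1 (0.021) in none.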

How the results depend on the processing

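With libraries paired by the replicate block, 3 members were called higher at 20 and 40 min and 5 at 40 min, against 0 without it. With each library scaled to the same total 1 was called at 20 and 40 min, and with both together, a choice made after seeing the data, 6 and 3. Nothing was called at 20 min, in mitosis or between the stages under any setting. In CCNA-GFP, scaling to the same total left 15 members higher at 40 min, 22 at 60 min, 14 at 120 min and 17 in asynchronous cells, all against mitosis, and 15 lower (24.2%, against 35.0% of all genes) and 22 higher (35.5% against 35.2%) in asynchronous cells than at 60 min. The members' medians then turned to -0.029 at 40 min, -0.034 at 60 min, -0.020 at 120 min and 0.066 for asynchronous cells against 60 min. Those of all genes were -0.051, 0.021, 0.037 and -0.0033 in the same order. Gclm at 60 min turned to -0.030. A minimum of 1 TPM left 38 members to test and called 34 at 60 min (89.5%, against 92.8% of all genes), 37 at 120 min (97.4% against 94.6%), 28 in asynchronous cells (73.7% against 74.1%) and 26 lower than at 60 min (68.4% against 72.5%). Without the block 17 rose at 40 min (27.4% against 23.8%). Leaving out each replicate gave 18 to 28 at 40 min (18 without replicate 1, 29.0% against 26.4%) and 23 to 43 for asynchronous cells below 60 min (23 without replicate 1, 37.1% against 44.7%).

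The choice itself gave 131 members with a pseudocount of 0.1, 176 with a mean of at least 0.1, 37 with at least 0.3 and 245 from asynchronous pairs alone, of which 68, 68, 37 and 61 are among the 68. Leaving out a replicate moved the members' median from -0.018 (without replicate 2) to 0.087 at 20 min and from -0.012 to 0.081 for 20 and 40 min against mitosis. The medians of all genes were then -0.097 and -0.025 at 20 min, and -0.080 and 0.0083 against mitosis. Each of these fits keeps a single pair at 20 min and at 40 min. Ephb3 at 20 and 40 min lay near 0: it was 0.0018 with a pseudocount of 0.1, 0.00035 with 0.5, 0.072 with scaling, with or without the block, and -0.036 to 0.035 leaving out each replicate, and Sfrp2 -0.11 to 0.027. The cause of these shifts was not tested. TPM hold no depth, so the limit that depth sets on low members is unknown.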
